A study of Mus musculus with 16 samples.

Results

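The lumbar spinal cord of healthy mice was compared with a common reference made from neonatal organs, on each of the 8 wild-type arrays of a series of 16 two-colour arrays. Each array held the Cy3-labelled RNA of one lumbar cord and the Cy5-labelled RNA of the pool, so that the comparison was made between both channels of the same array. The members were chosen by their labels, with earlier results of these data known. Of them, 4 arrays carried cord from non-transgenic male mice at 40 days of age and 4 at 80 days, all on the B6SJL background. The reference was a pool of neonatal RNA from NonTg and SOD1G93A mice of the same background, described in the study's methods as heart, kidney and liver. In the series both served as controls for mice that carry the mutant human SOD1 transgene, whose arrays were not used here. The pool was one RNA reference with no replicate of its own, and the dyes were never exchanged, so that a dye effect and a tissue difference cannot be told apart.

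The lumbar cord holds motor neurons, which send axons to the muscles of the hind limb, among interneurons that release glycine, GABA or glutamate. Oligodendrocytes wrap their axons in myelin and astrocytes clear transmitter from the synapses. Neonatal organs differ from this tissue in cell type and in age at once: cells of the newborn heart, kidney and liver still divide, the newborn liver still makes blood cells, and connective tissue is being laid down. Every ratio below therefore joins tissue and age, which cannot be told apart here. In such bulk RNA, fewer cells of a type and less RNA per cell cannot be told apart either.

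Of 41174 probes, 26275 were tested, namely those well above background (the scanner software's own test against the local background) on at least 6 of 8 arrays in at least one channel. Between 46.1% and 55.3% of spots passed this test in the cord channel and between 58.1% and 70.0% in the pool channel, no spot was saturated, and the log2 ratios of any pair of arrays correlated at 0.970 to 0.992 across probes. A positive log2 ratio means a higher signal in cord, and a probe was called where its mean log2 ratio was at least 1 in size (2-fold) with an adjusted p under 0.05 in limma. By this rule 5394 probes (20.5% of those tested) were higher in cord and 7468 (28.4%) were lower. Of 14944 genes, each represented by its brightest tested probe, 3183 (21.3%) were higher and 4228 (28.3%) were lower, and the median log2 ratio was -0.17. Another 7533 genes were not called. The counts of marker lists below stand beside these shares. The arrays were labelled biological replicates, and all 12862 called probes but 1 had the same sign of the mean at both ages.

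**Figure D1:**
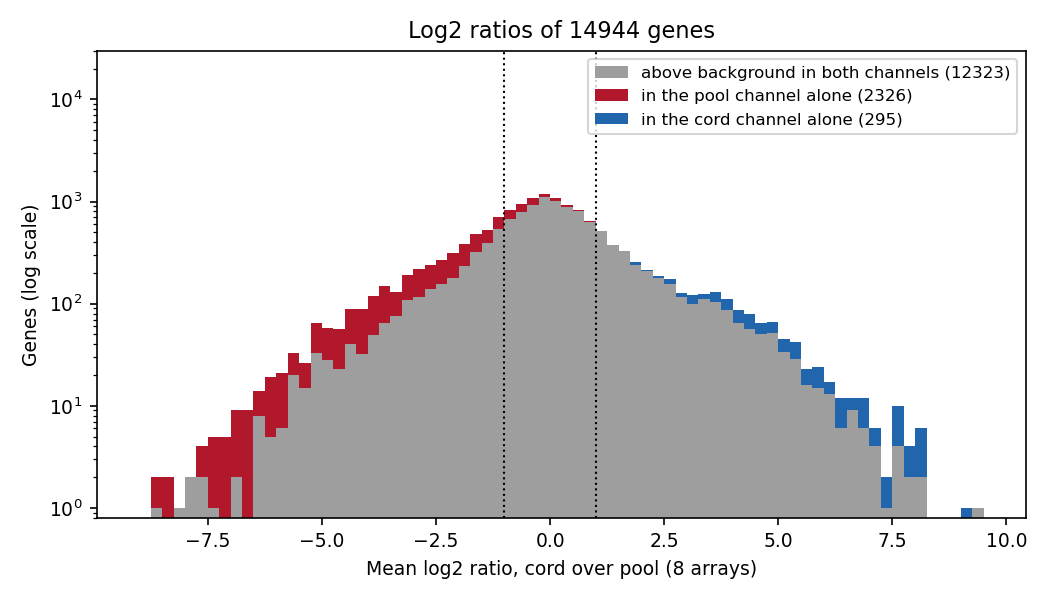
Number of genes (log scale) by mean log2 ratio of cord over pool across 8 arrays, for 14944 genes in bins of 0.25, with dotted lines at -1 and 1. Genes seen in the pool channel alone (2326) fill the left flank, and those seen in the cord channel alone (295) the right.

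Most of the difference lay in a long flank on either side. The quartiles of the genes' log2 ratios were -1.17 and 0.79, and the outer percentiles (5 and 95) were -3.55 and 3.51. A total of 12323 genes were well above background in both channels on at least 6 arrays, where 2880 were higher and 2586 lower. Of the 2326 genes seen in the pool channel alone 1642 were called lower, and all 295 genes seen in the cord channel alone were called higher. Genes of either class passed the filter through that channel alone, so the direction of their calls follows largely from the class. The split also moved with the scaling: after normexp background correction and loess 3338 probes were higher and 2710 lower, and among probes above background in both channels on all 8 arrays 4092 were higher and 2947 lower. With normexp signals only centred on each array's median the counts were 1318 and 13326, and with no normalization within arrays 241 and 22875. The median of all genes was then -1.41 and -2.70. With normexp signals centred in this way the medians of the microglial, Hox, normalizer, proteasome and quantitative PCR lists given below turned negative, and with no normalization those of the motor neuron, peptide, precursor, brain matrix and cord regulator lists did so too. Relative to the median of all genes these lists stayed above 0 under all 7 scalings, apart from the normalizers and the proteasome, which did so under 5. Among lists lower in cord, the erythroid, organ regulator and T cell medians lay below that of all genes under 5 scalings. They lay above it, by 0.87, 0.47 and 0.89, under both normexp scalings without loess. The pancreatic median stood at -0.16 relative to that of all genes in the main fit, but above it under 5 scalings. Centring drops out of these relative values, so scalings that differ in centring alone gave the same value. The 7 scalings are therefore not 7 separate checks.

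Genes of the neuron were higher in cord. All 20 pan-neuronal markers were higher, with a median log2 ratio of 4.22 and array medians between 4.28 and 4.56. Nefl, the light neurofilament of the axon, had log2 ratios between 7.92 and 8.47 on the 8 arrays with a median of 8.19, a mean ratio of 289-fold (log2 8.17 ± 0.07, SE, n = 8, adjusted p = 2.5e-11). Its partners Nefm and Nefh had lower mean log2 ratios, 5.42 and 4.96. Snap25 and Syt1, both needed for vesicle fusion at the synapse, reached 7.52 and 6.57. Other probes stood at 7.91 and 3.88 for Snap25 and between 3.87 and 5.96 for Syt1. The dendritic protein gene Map2 reached 6.10, and none of the 8 arrays fell below 5.93. The smallest ratio in the list was that of Vamp2, another vesicle protein, at 2.71 on its brightest probe, while its other probes stood at 0.10 and 0.11 and were not called. The neuronal tubulin Tubb3 came next at 2.83.

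Genes of glycine and GABA transmission had some of the highest ratios. All 20 tested genes of transmitter release and reception were higher (median 5.22), and 6 of them were seen in the cord channel alone. Slc6a5, the glycine transporter of glycinergic terminals, was well above background on 8 arrays in cord and on none in the pool. It was at least 314-fold higher in cord, where the bound sets the cord signal against the dimmest signals that passed the background test in the pool channel. Glrb, the glycine receptor subunit that anchors the receptor, ranged from 7.65 to 8.26 with a median of 8.12. Gad1, which makes GABA, and Slc32a1, which loads GABA and glycine into vesicles, had mean log2 ratios of 6.66 and 5.68. Slc17a6, the vesicular glutamate transporter of excitatory spinal neurons, reached 6.80. Gphn, the receptor scaffold, was the lowest of the list at 1.26, and another of its probes had a log2 ratio of -0.56.

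Motor neuron genes were higher as well but dimmer. All 8 tested members of 10 were higher, with a median of 3.73, and Chat and Lhx3 were too dim to be tested. Slc5a7, the choline transporter of cholinergic terminals, had log2 ratios from 3.61 to 4.26 with a median of 3.98. Ache, which breaks down acetylcholine, reached 4.62, the motor neuron regulator Isl2 reached 4.60, and Isl1 had the lowest ratio at 1.61. Peptide genes followed with 12 of 14 higher, led by Nmu, the precursor of neuromedin U, at 5.66 (well above background on 1 array in the pool). Tac1, the precursor of substance P, stood at 5.54 and Calca, that of calcitonin gene-related peptide, at 4.64. Another Calca probe was called lower and was not well above background on any array in cord, so the direction depends on the probe. Pnoc and Nts did not reach the 2-fold limit, with 0.26 and 0.62.

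The 18 oligodendrocyte and central myelin genes were all higher, with a median of 4.40. For Mobp, a myelin gene, 3 probes gave 8.31, 3.35 and 2.94, all higher but far apart. Mog and Mag, surface proteins of the sheath, reached 5.37 and 4.99, and Olig1 and Olig2, regulators of the lineage, 6.58 and 4.58. Mbp stood at 4.19, and its other probes at 3.43 and -0.28. Of the precursor markers, Gpr17 was higher at 4.10, while Pdgfra and Cspg4, which are also made by mesenchyme and vessels elsewhere, had ratios of -0.58 and -0.70 and were not called.

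Astrocyte genes were higher in 14 of 15 cases, with a median of 3.92. S100b and Gfap reached 7.72 and 7.25, and the glutamate transporter Slc1a2 ranged from 6.78 to 7.18 with a median of 6.98. Gja1, which encodes a gap junction protein shared by astrocytes and heart muscle, was level at 0.04 ± 0.05 (SE, n = 8, adjusted p = 0.48). Microglial genes were split: 10 of 16 were higher, 1 was lower and 5 were not called. The higher ones included P2ry12, with arrays between 2.72 and 3.47, and Cx3cr1 at 2.13. Tmem119, often used to tell microglia from other macrophages, was the lower one, with log2 ratios between -1.55 and -0.76, and Tyrobp and Itgam, shared by all myeloid cells, stood at -0.68 and -0.07.

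Vessel genes went both ways: of 13, 5 were higher, 6 were lower and 2 were not called. Transporters of the blood-brain barrier were higher, with Slco1c1 (thyroid hormone), Slco1a4 (organic anions) and Mfsd2a (a lipid carrier) at 4.63, 4.54 and 4.44. Among genes common to endothelium, Cdh5 and Kdr were lower at -4.85 and -3.47, while Flt1 stood at -0.06 and was not called. Cldn5, a tight junction gene, was lower too at -2.15. Ependymal markers were not higher in cord: 5 of 6 tested were lower, among them Dynlrb2, seen in both channels, at -2.17. Pifo, at -2.62, was 1 of 2 seen in the pool channel alone, so its direction follows largely from that class. Foxj1, the regulator of motile cilia, stood at 0.24.

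**Figure D2:**
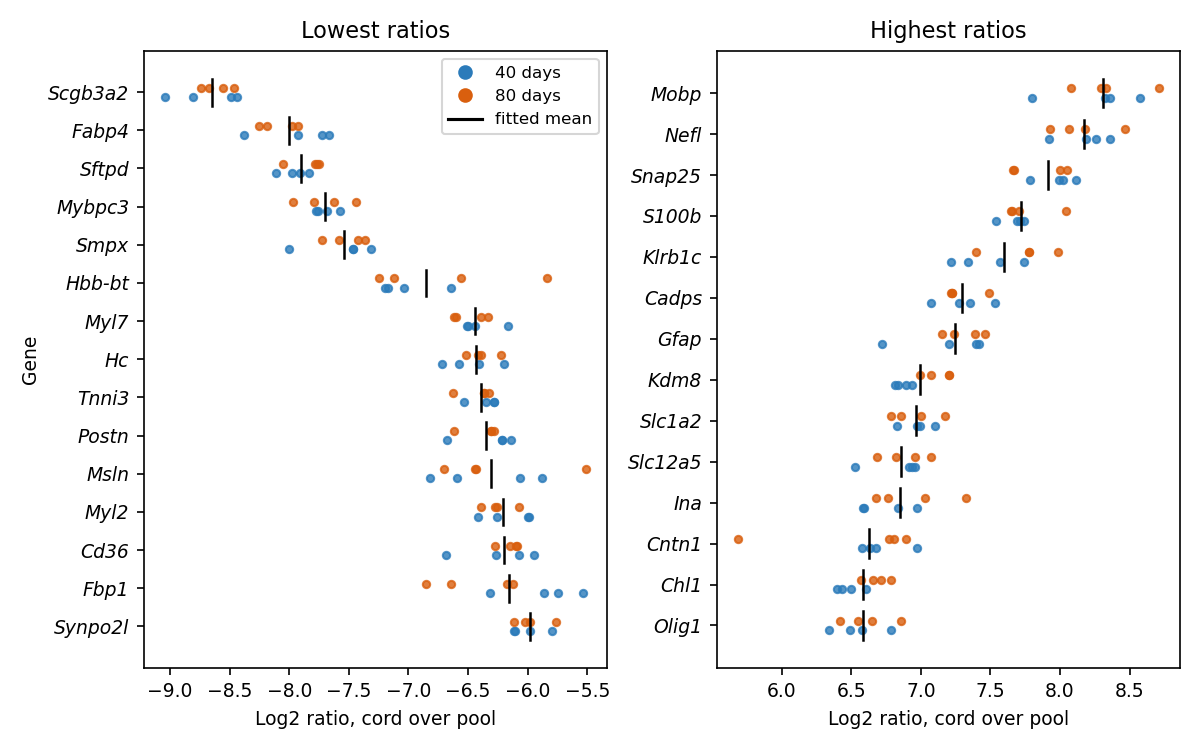
Log2 ratio of cord over pool on each of 8 arrays for genes among the 15 with the lowest and the 15 with the highest mean of called probes well above background in both channels on all arrays; black bars are fitted means. In the right panel Mobp reaches 8.31 and Nefl 8.17, and in the left Scgb3a2, a secreted protein of the lung airway, is lowest at -8.65.

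The pool side carried the organs it was said to hold. All 32 tested heart muscle genes were lower in cord, with a median of -5.20 and array medians between -5.43 and -5.02. Mybpc3 and Tnni3, parts of the cardiac sarcomere, stood at -7.70 and -6.39, and Myl2, the ventricular light chain, ranged from -6.41 to -5.99 with a median of -6.26. Pln, the calcium pump regulator phospholamban, was well above background on 8 arrays in the pool and on none in cord, and was at least 288-fold lower in cord. Of 28 tested kidney genes, 24 were lower (median -3.42), among them the tubular cadherin Cdh16 at -6.97, the endocytic receptor Lrp2 at -4.33 and the collecting duct water channel Aqp2 at -2.71. Of the 28 kidney genes 16 were seen in the pool channel alone. The median was -2.94 with genes unseen in cord at their bound. Slc22a12, the urate transporter, had a ratio of -0.30.

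Liver genes were lower in 21 of 27 cases, with a median of -4.01, or -3.16 with the genes unseen in cord set at their bound. Of the 27 liver genes 15 were seen in the pool channel alone. Afp, the albumin of fetal liver, ranged from -8.10 to -7.75 with a median of -8.05, whereas Alb averaged -3.63. Alb was well above background on all 8 arrays in the cord channel. The fibrinogen chain Fgb stood at -5.17, and Fgg, another fibrinogen chain, was at least 64.4-fold lower. The 2 exceptions were Itih3, a hyaluronan-binding inhibitor chain, at 3.97 with all arrays between 3.59 and 4.43, and Vtn, vitronectin, at 2.15. The related Itih2 had a ratio of -0.74 and the retinol carrier Rbp4 one of 0.05.

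Many liver promoters carry sites for HNF1, a factor that binds around the half-site GTTAAT. This half-site, on either strand, lay in 8 of 22 liver promoters of the RefSeq table (36.4%) and in 7.20% of all 27025 promoters of the same length, 250 bases before to 50 after the start. It lay in 7 of 21 kidney promoters (33.3%) as well, though only 75% of the kidney genes had a promoter in the table, so that this share is void as a check. The 200 bases before the start are shown for the liver genes Alb, Afp and Fgb and for the astrocyte genes S100b and Gfap, with each match in capitals (ATTAAC is the match on the opposite strand). The regions, in GRCm38.p6, are chr5:90460670-90460869 (+ strand) for Alb, chr5:90490514-90490713 (+ strand) for Afp, chr3:83049864-83050063 (- strand) for Fgb, chr10:76253636-76253835 (+ strand) for S100b and chr11:102897201-102897400 (- strand) for Gfap.
Alb: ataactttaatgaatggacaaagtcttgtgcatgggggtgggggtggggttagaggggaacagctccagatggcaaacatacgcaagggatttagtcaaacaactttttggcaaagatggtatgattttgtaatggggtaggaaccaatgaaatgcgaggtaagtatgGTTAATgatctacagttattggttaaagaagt
Afp: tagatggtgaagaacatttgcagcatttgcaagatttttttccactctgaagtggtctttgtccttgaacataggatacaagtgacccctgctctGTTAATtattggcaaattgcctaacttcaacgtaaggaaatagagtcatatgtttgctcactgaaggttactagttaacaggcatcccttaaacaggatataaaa
Fgb: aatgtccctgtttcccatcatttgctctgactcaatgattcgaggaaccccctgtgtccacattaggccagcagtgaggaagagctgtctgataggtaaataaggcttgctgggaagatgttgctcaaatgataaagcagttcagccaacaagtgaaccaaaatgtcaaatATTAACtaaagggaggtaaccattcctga
S100b: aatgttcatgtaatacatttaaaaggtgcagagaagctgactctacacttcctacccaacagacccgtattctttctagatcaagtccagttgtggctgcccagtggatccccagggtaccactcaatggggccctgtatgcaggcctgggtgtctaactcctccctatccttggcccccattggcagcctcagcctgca
Gfap: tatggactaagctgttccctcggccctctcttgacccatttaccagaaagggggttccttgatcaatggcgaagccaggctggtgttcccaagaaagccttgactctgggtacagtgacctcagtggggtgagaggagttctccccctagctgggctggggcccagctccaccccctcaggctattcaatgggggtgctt
The match lay 32 bases before the start in Alb, 105 in Afp and 29 in Fgb, and none lay in the windows of S100b and Gfap. A match is a string of letters and not a measured site. The string CCAAT, on either strand, lay in 24 of 28 cell cycle promoters (85.7%) and in 37.9% of all promoters. The string TATAAA, on the sense strand, lay in 7 of 22 liver promoters (31.8%), in 5 of 10 skeletal muscle promoters, in 4 of 11 vessel promoters (36.4%), in 0 of 28 cell cycle promoters and in 8.88% of all promoters. For the genes called higher or lower as a whole, fewer than 80% had a promoter in the table (77.8% and 76.9%), so that a comparison of their promoters would be void and is not given.

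Genes of the lung airway and alveoli were among the strongest of the pool, although the methods name no lung. The lowest ratio of all genes seen in both channels on all arrays was that of Scgb3a2, an airway secretory protein, with log2 ratios from -9.04 to -8.44 and a median of -8.61. Sftpd, surfactant protein D, averaged -7.90. A list of 21 lung genes was then drawn up after these values were seen. All 21 were tested and lower in cord, with a median of -4.78 and array medians between -4.91 and -4.48. They included the surfactant gene Sftpc at -5.22, the club cell gene Scgb1a1 at -4.78, the alveolar gene Ager at -5.16 and Nkx2-1, a regulator of lung and thyroid, at least 24.7-fold lower. Sftpc was also well above background on all 8 arrays in the cord channel, with a mean log2 signal of 13.7 there and 18.9 in the pool channel. Whether pool signal reached the cord channel was not tested. Genes of other tissues were looked at in the same way. Adipocyte genes were lower in 4 of 6 cases and intestinal genes in 3 of 4. Pancreatic genes were higher in 2 and lower in 1 of 5, skin genes higher in 1 and lower in 3 of 7, T cell genes lower in 1 of 2 and adrenal genes higher in 1 of 5. Seen in the pool channel alone were 5 of the 6 adipocyte genes, all 4 intestinal genes and both T cell genes. The direction of their calls follows largely from that class. Relative to the median of all genes these 3 lists stood at -3.17, -2.69 and -1.28, but at -0.15, -0.05 and 0.89 with centred normexp signals. Of the adipocyte genes Ucp1, the uncoupling protein of brown fat, was at least 7.87-fold lower, and of the intestinal genes Reg3g was lower at -6.47 and was well above background on 4 arrays in cord. Skeletal muscle genes were lower in 10 of 12 cases, among them Myh8, the perinatal myosin, at -3.49.

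Genes of blood cells were lower in cord with the dye-normalized signals. All 13 tested erythroid genes were lower, 10 of them seen in the pool channel alone, with a median of -2.99, or -1.56 with genes unseen in cord at their bound. Relative to the median of all genes this list stood at -2.81, at -0.35 with normexp and loess and at 0.87 with centred normexp signals, so that its direction relative to all genes depends on the scaling. The globin gene Hba-a1 ranged from -4.97 to -4.26 with a median of -4.67, and the haem synthesis gene Alas2 averaged -3.72. All 8 tested genes of neutrophils and their precursors were lower too. S100a8 varied between -4.89 and -2.37 and averaged -3.77. MHC genes were mildly lower, 7 of 13, with array medians between -1.49 and -0.29.

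**Figure D3:**
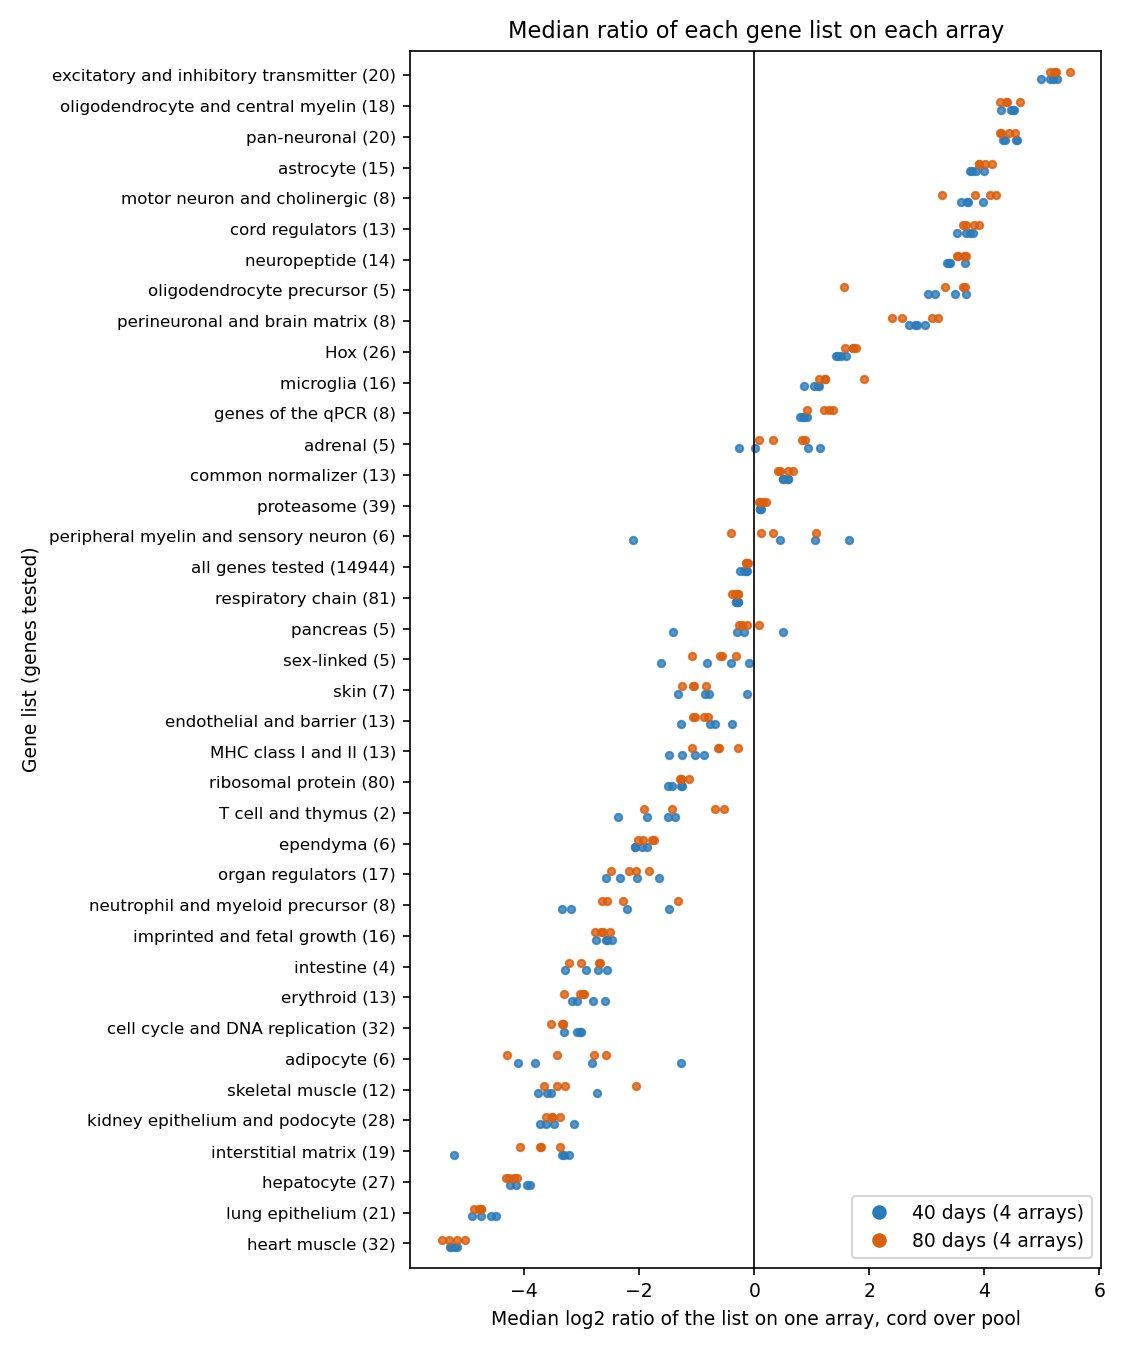
Median log2 ratio of cord over pool of each gene list on each of the 8 arrays, with the number of genes tested in parentheses and arrays coloured by age. Array medians run from 4.28 to 4.56 for pan-neuronal genes and from -5.43 to -5.02 for heart genes, as fitted with dye-normalized signals (the Hox, microglial, normalizer, proteasome and quantitative PCR lists turn negative with centred normexp signals), while interstitial matrix and peripheral myelin each have 1 array (40 days replicate 4) well below the others.

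Genes of cell division were lower in cord almost without exception: 31 of 32, with a median of -3.32. Of these 32 genes 11 were seen in the pool channel alone. The median was -3.16 with genes unseen in cord at their bound, and -2.76 over the genes seen in both channels. Mki67, made only in cycling cells, ranged from -5.01 to -3.67, Pcna averaged -1.24 and Racgap1, at -0.61 on its brightest probe, was not called, though another probe unseen in cord was called lower. Fetal growth and imprinted genes were lower in 11 of 16 cases. Mest, Igf2 and H19 stood at -5.45, -2.95 and -2.37. Snrpn and Ndn, imprinted genes used by neurons, were higher at 4.75 and 2.23, as was Lin28b, a repressor of let-7 maturation, at 2.03. The imprinted RNA Meg3 had a ratio of -0.22 on its brightest probe and -0.18 on another, neither called, while 3 other probes were higher in cord, between 4.46 and 4.65.

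Extracellular matrix changed in kind. Of 19 genes of interstitial matrix 18 were lower, with a median of -3.55, led by Postn at -6.35 and the fibrillin gene Fbn1 at -5.60, with the collagen gene Col1a1 at -4.44. Sparc, also made by astrocytes, stood at -0.51 and was not called. Among genes of brain matrix 6 of 8 were higher, with the lecticans Ncan and Bcan at 6.13 and 5.07. Vcan, the lectican of developing connective tissue, was lower at -2.42.

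Regulators of cell identity were looked at next. Of 13 tested cord regulators 12 were higher, 6 of them seen in the cord channel alone. Zic1, a factor of the dorsal cord, ranged from 6.39 to 8.01 and was well above background on 4 of 8 arrays in the pool. Pax6 was at least 13.7-fold higher, and Lhx1, at -0.26, was not called. Of 17 organ regulators 13 were lower and 1 was higher, and 13 were seen in the pool channel alone. The list's median was -2.22, or -1.72 with genes unseen in cord at their bound. Relative to the median of all genes the list's median was -2.04, but -0.47 with normexp and loess and 0.47 with centred normexp signals. Foxa2, a factor of liver and lung, averaged -7.50 and was well above background on 1 array in cord, and the liver factor Hnf4a was at least 3.30-fold lower on its brightest probe, while another stood at -0.26 and was not called. The higher one was Onecut1, a factor of hepatocytes and of some spinal neurons, with log2 ratios from 2.11 to 3.76 and a median of 3.02.

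Hox genes, which give cells their position along the body axis, were higher in 15 of 26 cases and lower in none (median 1.51). The higher ones lay mainly in the middle of the clusters, a grouping made after the values were seen. Among paralogues 5 to 10, 14 of 16 genes were higher with a median of 1.94, against 1 of 8 among paralogues 1 to 4 (Hoxd4, at 2.03) and 0 of 2 among those beyond. Hoxc10, a gene of the lumbar level, ranged from 3.18 to 4.00 with a median of 3.88, and Hoxb8, Hoxc6 and Hoxa7 averaged 3.02, 2.90 and 2.86. Hoxa2, a hindbrain gene, stood at -0.81 and Hoxa11 spread from -2.26 to 0.63. With normexp signals centred on the median of each array the list's median was -0.20, where that of all genes was -1.41.

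**Figure D4:**
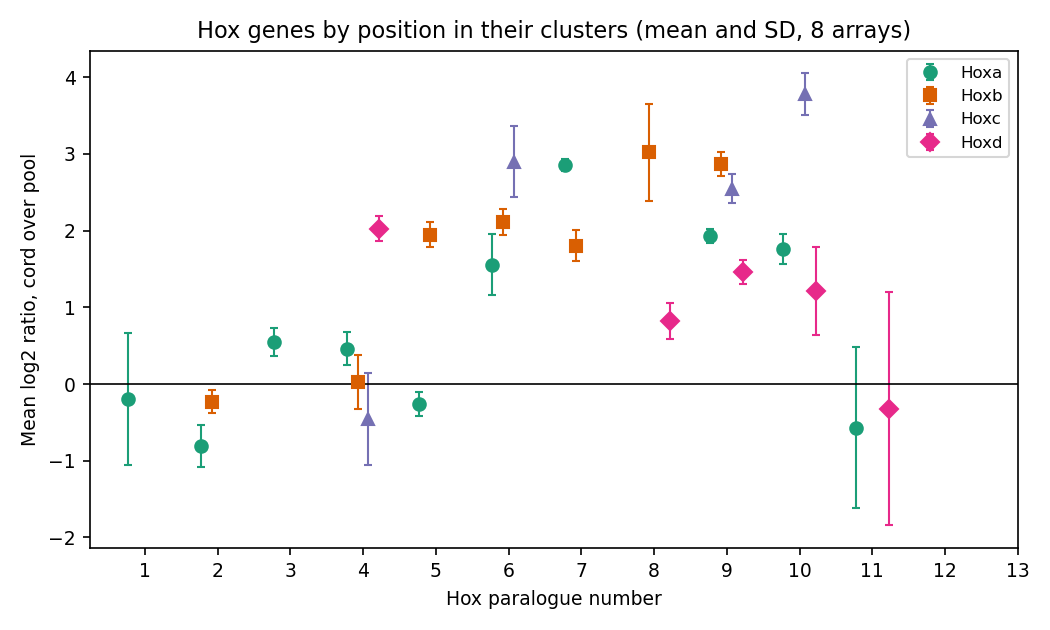
Mean log2 ratio of cord over pool of 26 tested Hox genes by paralogue number, with the SD over 8 arrays as bars and the clusters as symbols. Ratios rise from near 0 at paralogues 1 to 4 to between 1 and 4 at most of paralogues 5 to 10 (Hoxa5 and Hoxd8 are lower) and lie near 0 at paralogue 11; under centred normexp signals the list's median is -0.20.

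Genes often taken as constant were not all level. Of 13 common normalizers 2 were higher, 3 were lower and 8 were not called. Actb and Gapdh stood at -0.22 and 0.87, Ywhaz at 1.01 (another probe at 0.58 was not called), and Rplp0, a ribosomal stalk gene, at -2.68. Ribosomal protein genes were lower as a group, 56 of 80 with a median of -1.28 and none higher. Respiratory chain genes stayed near 0 with the dye-normalized signals (median -0.32, 9 of 81 lower), apart from muscle forms such as Cox6a2 at -5.97. Relative to the median of all genes the respiratory chain list stood at -0.15, but at -1.40 with centred normexp signals. Among 8 genes also assayed by quantitative PCR, 4 were higher on the arrays (median 1.03). Proteasome genes had a median of 0.12, with 2 of 39 higher and 3 lower, among them the immune subunit Psmb8, with arrays between -1.56 and -0.27.

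Sex-linked genes differed between the channels. Xist, the RNA that silences an X chromosome in female cells, was well above background on 8 arrays in the pool and on none in the cord of these male mice, and was at least 51.7-fold lower. The Y-linked genes Ddx3y, Kdm5d and Eif2s3y were well above background in both channels, at 0.43, -0.37 and -1.57. Uty, also Y-linked, was well above background on 5 arrays in cord and on 8 in the pool, at -0.61.

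Pairs of related genes, a neural or general form named first and a form used elsewhere, separated on the same arrays. In 32 of 34 tested pairs the first form had the higher ratio, by a median log2 difference of 4.23 over all tested pairs. In 14 pairs the first form was called higher and the other one lower. The enolases Eno2 and Eno3 differed by a mean of 9.97 and the creatine kinases Ckb and Ckm by 9.07. Snap25 and Snap23 differed by 9.09. Syngr1 and Syngr2 did not separate on their brightest probes (-0.82 and -0.73). Another Syngr1 probe was called higher in cord at 4.44, so the result for this pair depends on the probe. Other pairs depended on the probe too. Elavl1, Rbfox2 and Tubb6, each the second of a pair, stood at -1.94, -1.15 and -3.15 on their brightest probes. Each had another probe above 0, at 2.08, 0.60 and 0.70.

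Among the highest ratios were also genes with no list. Klrb1c, named for a receptor of natural killer cells, averaged 7.60 on its tested probe and Kdm8 averaged 6.99, with all arrays within 6.82 and 7.20. The potassium channel gene Kcnc1, used by fast-spiking neurons, was at least 212-fold higher.

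Single arrays stood apart in genes of tissue around the cord. Of the peripheral myelin and sensory neuron genes 2 of 6 were higher and 2 lower. On the array of replicate 4 at 40 days Prx, a gene of Schwann cells, had a log2 ratio of -5.36, against -0.31 to 1.45 on the other 7 arrays. The same array had the lowest ratios of the matrix genes Col1a1 and Dcn, -6.43 and -3.83. Without it Prx averaged 0.58 in place of -0.21 and Dcn -0.77 in place of -1.15, so that Dcn was no longer called. Dcn also lost its call without replicate 2, 3 or 4 at 80 days, with means no lower than -1.12. This array also had the smallest share of cord spots above background (46.1%). Skeletal muscle genes instead were less low on replicate 3 at 40 days and replicate 1 at 80 days. There Tnni2, a fast muscle troponin, had ratios of -0.01 and 0.52, against -3.03 to -2.14 on the other 6, and Mylpf -0.85 and -0.52 against -3.89 to -2.67. On replicate 3 at 80 days Chodl, a gene of fast motor neurons, stood at 1.14, against 5.37 to 7.11 on the others, and its mean was 6.24 without that array and 5.57 with it. The part of the dissection in these values was not tested.

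**Figure D5:**
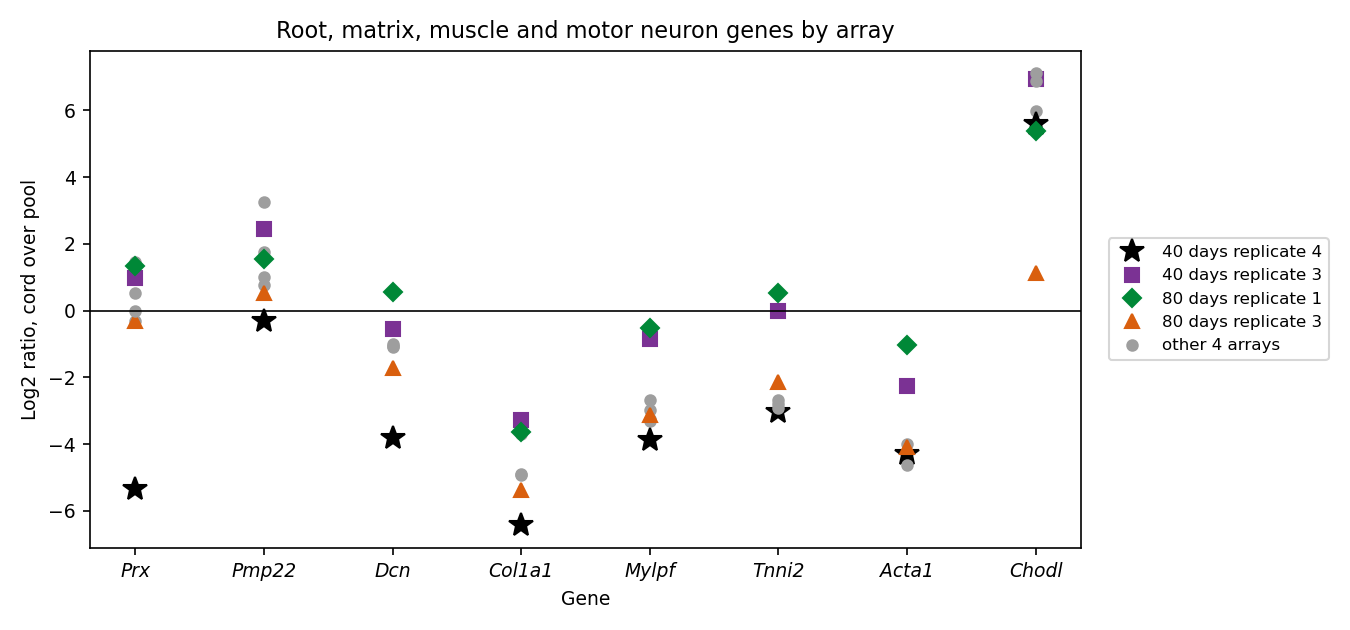
Log2 ratio of cord over pool on each of 8 arrays for genes of peripheral myelin, matrix, skeletal muscle and motor neurons, with 4 arrays marked. The array of 40 days replicate 4 is lowest for Prx, Pmp22, Dcn and Col1a1, those of 40 days replicate 3 and 80 days replicate 1 are highest for Mylpf, Tnni2 and Acta1, and that of 80 days replicate 3 is lowest for Chodl.

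The ratios at 40 and 80 days were then set against each other. No probe passed an adjusted p of 0.05 for the difference of the ages in limma (0%; the smallest adjusted p was 0.112), and 3053 probes had an unadjusted p under 0.05. Of all genes, 6.15% had such a p and were higher at 80 days and 4.88% were lower. The median size of the age difference was 0.15 on the log2 scale, against a median SD of 0.20 within an age. Gsn, gelsolin, had the smallest p, with log2 ratios from 0.18 to 0.68 at 40 days and from -1.02 to -0.69 at 80 days. Mal, a myelin proteolipid, fell from between 4.04 and 4.18 to between 3.00 and 3.40 on a second probe. Of 18 oligodendrocyte genes, 5 had an unadjusted p under 0.05 and were lower at 80 days, though the median age difference of the list was -0.0053. Genes with such a p that were higher at 80 days made up 3 of 6 ependymal, 3 of 14 peptide, 3 of 13 MHC and 3 of 13 cord regulator genes. Each replicate number at both ages shared a slide, and the age went with the position on it, so that age and position cannot be told apart.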

How the data were processed

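Lumbar cord RNA (Cy3) and a neonatal organ pool (Cy5) were hybridised together on Agilent two-colour arrays. The authors deposited scanner intensity values from Agilent Feature Extraction 9.5.3.1, per the labels, background-subtracted, detrended and dye-normalized (linear and lowess), with a surrogate in place of signals too weak to tell from background. The log2 ratio of the processed Cy3 over Cy5 intensity was taken per spot without control or outlier spots, spots of a probe were averaged, and ratios were fitted with limma 3.58.1 (R 4.3.3) with a mean per age. The tissue contrast was the mean of both ages against 0, which leaves out the pool's own spread, and p-values were adjusted by Benjamini-Hochberg over 26275 probes. Calls needed a 2-fold mean ratio and an adjusted p under 0.05, and probes needed to be well above background on 6 of 8 arrays in either channel. The fit was tested on simulated data.

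The bound of a probe unseen in one channel set the mean signal of the bright channel against, per array, the higher of the probe's own dim signal and the lowest signal among probes well above background. Symbols came from RefSeq by accession (22704 probes), by the file's symbol (6582) or by synonym (3073), 378 probes had several and 8437 none. The gene's brightest tested probe stood for it. Of 6020 genes with several tested probes, 1027 had a probe on the opposite side.

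The members and lists were chosen with earlier results of these data known, and 8 lists (lung epithelium, skeletal muscle, adipocyte, intestine, pancreas, skin, T cell and thymus, adrenal) were added after values were seen. Genes named were the first 5 of each list with its highest and lowest, the 15 highest and lowest probes in both channels, the 10 brightest probes seen in one channel alone, the 10 of smallest age p and the pairs, and others were chosen after their values were seen. Alternatives covered background correction, dye normalization, centring, filter, threshold, model and left-out arrays. The arrays of transgenic mice and the table of processed values of the series were not used here, and the results of some genes are not reported here. Microarrays have no read depth, and 8 arrays and 1 pool limit the precision.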

Additional observations from a re-analysis of the deposited data

Results flagged for a closer look

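Within each age, 1 array lay far from the other 3 of its group (Dixon's test) in 29 of 352 groups of 4 arrays over the genes and lists named above. Replicate 4 at 40 days accounted for 8 of them. Chance gives about 1 in 20 for independent groups. These groups share arrays and genes, and some genes were chosen after their values were seen, so that rate is no valid yardstick for the count. On replicate 1 at 80 days the log2 ratios that lay apart were -0.649 for Actb, -3.858 for Ckm and 2.446 for Vtn. On replicate 2 at 40 days the log2 ratio that lay apart was 3.66 for the median of the neuropeptide genes. On replicate 2 at 80 days the log2 ratios that lay apart were -4.876 for the median of the lung epithelium genes and -4.959 for Scgb1a1. On replicate 3 at 40 days the log2 ratios that lay apart were -2.254 for Acta1, 4.984 for Bcan, -4.892 for Ckm and -0.008457 for Tnni2. On replicate 3 at 80 days the log2 ratios that lay apart were 1.566 for the median of the oligodendrocyte precursor genes, 1.917 for the median of the microglia genes, -1.137 for the median of the ribosomal protein genes, 3.177 for Hoxc10, -0.8145 for Pdgfra, -8.052 for Sftpd and 0.5796 for Tyrobp. On replicate 4 at 40 days the log2 ratios that lay apart were -5.217 for the median of the interstitial matrix genes, -5.513 for Cdh5, -6.432 for Col1a1, -3.828 for Dcn, -6.679 for Postn, -5.358 for Prx, -5.314 for Sftpc and 1.546 for Vtn. On replicate 4 at 80 days the log2 ratios that lay apart were -3.541 for the median of the cell cycle and DNA replication genes, -6.62 for Postn, 8.044 for S100b and -6.627 for Tnni3. The part of dissection, labelling or scanning in these values was not tested.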

How the results depend on the processing

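The counts of probes higher and lower in cord followed the scaling and the filter. They were 3338 and 2710 with normexp, loess and Aquantile, 3345 and 2727 with mean signals, normexp and loess, 3726 and 3102 with loess and no background subtraction, 4092 and 2947 with both channels above background on all 8 arrays, and 2787 and 3310 at a 4-fold threshold. Centred normexp signals gave 1318 and 13326, and normexp signals with no normalization within arrays 241 and 22875. Without one replicate each in turn the counts ranged from 5184 to 5401 higher and from 7081 to 7502 lower. The age difference passed an adjusted p of 0.05 for 2 probes with normexp and loess on either signal, 63 with no background subtraction, 85 with both channels above background on all arrays, 1 with no filter and 0 to 1 without one replicate. The replicate number marks a shared slide, but the deviations of same-numbered arrays correlated at -0.044, 0.016, -0.034 and -0.00014, and 0 of 8 arrays correlated best with their own number, so the numbers were not taken as pairs. With the replicate block 5394 probes were higher, 7458 lower and 0 differed with age. With normexp signals centred on the median of each array, the log2 ratio changed sign for C1qa (-0.66), Csf1r (-0.95), Gata4 (0.045), Gphn (-0.86), Penk (-0.094), Pmp22 (-1.27), Psmc5 (-0.69), Slc2a1 (-0.19) and Ywhaz (-1.14). With normexp signals and no normalization within arrays, the log2 ratio changed sign for Abcb1a (-0.75), Aldh1l1 (-0.98), C1qa (-1.94), Csf1r (-2.24), Cx3cr1 (-1.10), Glra1 (-0.15), Gphn (-2.14), Hapln4 (-0.53), Hoxc10 (-0.087), Isl1 (-0.87), Mal (-0.52), Mnx1 (-0.32), Mobp (-0.21), Nsg1 (-0.80), P2ry12 (-0.45), Penk (-1.38), Pmp22 (-2.56), Pou3f2 (-0.20), Psmc5 (-1.97), Slc18a3 (-0.21), Slc1a3 (-1.22), Slc2a1 (-1.47), Sox10 (-0.44), Sox2 (-0.20), Sst (-0.18), Tubb3 (-0.74), Vamp2 (-0.75) and Ywhaz (-2.43). The cause of these changes was not tested. A probe below background in one channel has only a bound there, so ratios of such probes carry no size beyond it.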
